A study of Arabidopsis thaliana with 3 samples.

Results

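The genes described here are the protein genes and open reading frames of the Arabidopsis thaliana mitochondrial genome. They were taken as the rows of both deposited tables whose locus code starts with ATMG, leaving out rows described as tRNA or ribosomal RNA. This left 125 genes of 30271 in the tables. The mitochondrial rows numbered 148, of which 3 were ribosomal RNA and 20 were tRNA. A protein name could be given to 37 of the 125, and the other 88 are open reading frames without one. The rule itself used no measured value, though the members were chosen with earlier results of these data known.

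RNA was sequenced from whole 9-day-old seedlings of 3 groups with 3 libraries each. WT was a Ws x Col-0 cross. T12 and T34 were populations of gip1gip2 double mutants, from a cross of gip1 (GABI_213D01) with gip2 (FLAG_36406), insertion alleles of 2 small proteins of the gamma-tubulin complexes that nucleate microtubules. Severity of the root growth phenotype increases between the populations, which is taken here to mean that T34 is the more affected. WT and the mutants thus share a mixed Ws and Col-0 background. Which parent gave the mitochondrial genome in each group was not examined. A difference of mitochondrial genome between WT and the mutants therefore cannot be told apart from mutant status. A whole seedling mixes shoot, root and remaining seed tissue. The labels call the replicates individual ones and say nothing of how the seedlings were pooled or grown, so each p-value reflects library-to-library spread, which may be technical.

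Plant mitochondria keep a small genome of their own. It encodes core subunits of the respiratory chain, which passes electrons from NADH to oxygen and pumps protons, and of the ATP synthase that uses the proton gradient. It also encodes some proteins of cytochrome c maturation and of the mitochondrial ribosome. The rest of these complexes, and the RNA polymerases and RNA-processing proteins that act on mitochondrial transcripts, are encoded in the nucleus. The nad1, nad2 and nad5 messages are each assembled by trans-splicing from separately transcribed parts, and those parts are separate rows here.

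The libraries held 20963358 to 30438933 reads, of which 24866 to 579240 came from the 125 genes. They differed in ribosomal RNA depletion. Ribosomal RNA took 22.4%, 95.7% and 49.1% of the reads of WT replicates 1, 2 and 3, 0.875% to 1.70% in T12 and 44.9% to 49.4% in T34. T12 thus lay below every WT and T34 library. Differences of T12 from WT or from T34 therefore cannot be told apart from the difference in depletion. WT replicate 2 therefore carried the 24866 reads, with 61 of the 125 genes under 10 reads and 6 at 0. The labels list 1 library under both WT and T34 and another under no group; these were used as WT replicate 1 and T34 replicate 3, from the table in which each stands. Summed tissue marker genes also differed from WT, without overlap in every set in T34 and in the root set alone in T12. The summed normalized count of 5 green shoot markers was 51398 to 84827 in WT, 58266 to 64926 in T12 and 26605 to 31640.0 in T34. For 6 root markers the ranges were 23598 to 40212, 47309 to 56059 and 48348 to 59592. For 4 seed storage markers they were 56.1 to 5259, 2167 to 5555 and 11741 to 29016. For 4 pollen markers they were 7.37 to 23.4, 3.42 to 9.62 and 1.49 to 5.54. The pollen sums were near the floor, since 1 read of WT replicate 2 stands for 11.7 normalized counts. Of the markers listed, 0 were at 0 in all libraries. The part of this tissue makeup in the results was not tested, and in whole seedlings fewer cells of a type and less RNA per cell cannot be told apart.

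The mitochondrial share of the RNA was higher in both mutant populations than in WT. Of the reads other than ribosomal RNA and tRNA, the 125 genes took 1.76%, 2.29% and 1.46% in WT replicates 1, 2 and 3. They took 2.36%, 2.56% and 2.51% in T12 and 3.03%, 3.12% and 3.03% in T34. The groups did not overlap, with T34 above T12 and T12 above WT. The means were 1.84% ± 0.419 (SD, n = 3), 2.48% ± 0.101 and 3.06% ± 0.0485. T12 was thus 1.35-fold above WT and T34 1.66-fold above WT and 1.23-fold above T12. A two-sided exact permutation test gave p = 0.1 for each of the 3 differences, the smallest value that 3 libraries against 3 allow.

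The chloroplast share of the same reads fell alongside, from 45.0%, 38.2% and 51.8% in WT to 33.8%, 32.8% and 31.5% in T12 and 20.0%, 21.4% and 20.7% in T34. Set against nuclear reads, which leaves the chloroplast out of the denominator, the mitochondrial reads came to 3.31%, 3.85% and 3.13% in WT, 3.70%, 3.95% and 3.81% in T12 and 3.94%, 4.13% and 3.97% in T34. On that measure T12 overlapped WT (exact permutation p = 0.3) and T34 overlapped T12 (exact p = 0.2), while T34 stayed above WT (exact p = 0.1, 1.17-fold). The open reading frame ATMG00030, described further on, held 21.1% of the mitochondrial reads of WT replicate 2. Without it, the share of nuclear reads was 3.21%, 3.04% and 2.91% in WT, 3.62%, 3.83% and 3.69% in T12 and 3.76%, 3.97% and 3.80% in T34, and both mutant populations lay above every WT library (exact p = 0.1 each). T34 against T12 then gave exact p = 0.3. The order of T34 and T12 therefore rests on the denominator. With all reads, ribosomal RNA included, T34 lay below T12 by 0.792 percentage points (exact p = 0.1).

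**Figure D1:**
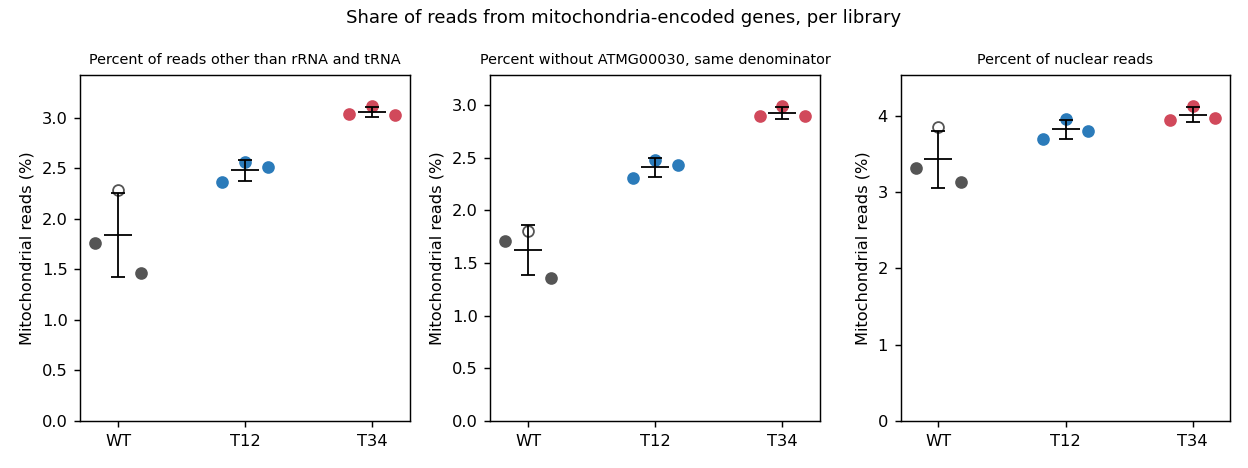
Percent of reads from the 125 mitochondria-encoded genes in each library (vertical axes, from 0) for WT, T12 and T34, of reads other than rRNA and tRNA (left), the same without ATMG00030 (middle) and of nuclear reads (right). Points are libraries, the open point is WT replicate 2, and the marks are means ± SD (n = 3); the 3 groups are separate at the left (means 1.84%, 2.48% and 3.06%) and close together at the right, where WT replicate 2 reaches the T12 libraries.

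Gene by gene, 59 of the 125 mitochondrial genes were called higher in each mutant population. Each row was counted, though some pairs of open reading frames held nearly the same reads. On the deposited scale, which divides each count by a size factor of its library, these 59 were higher in T12 than in WT and 0 were lower (limma-trend on log2 of the normalized count plus 1, Benjamini-Hochberg adjusted over the 20871 genes tested, adjusted p under 0.05). Over all genes tested, 40.2% were called in that comparison, 23.1% higher and 17.0% lower. In T34 against WT 59 were higher and 1 was lower, beside 45.2% called over all genes, 25.2% higher and 20.0% lower. At an unadjusted p under 0.05, 68 were higher and 0 lower in T12, and 67 were higher and 2 lower in T34. With edgeR and with DESeq2 on the recovered reads, 1 gene was called lower in T12. The median log2 fold change of the 125 was 0.49 in T12 and 0.51 in T34, beside 0.06 over all genes tested in each. All 125 genes passed the filter on low values. The 2 comparisons share their WT libraries and are not independent of each other.

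These counts depended on single libraries. WT replicate 2 was the one of low depth, and without it 91 genes were higher in T12 and 86 in T34. For counts from alternative runs or at an unadjusted p, here, above and below, the share called over all genes is not given. Such counts are therefore not read as particular to the mitochondrial genes. Leaving out T12 replicate 2 or 3 gave 31 or 35 higher in T12. The authors' deposited table called 65 higher and 0 lower in T12, and 66 higher and 1 lower in T34. Between the mutant populations 0 genes were higher in T34 than in T12 and 1 was lower on the deposited scale, beside 2.38% called over all genes, 0.858% higher and 1.52% lower. At an unadjusted p under 0.05, 5 were higher and 5 lower, and edgeR and DESeq2 on the recovered reads each called 2 higher and 2 lower.

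A second scale, called the compartment scale here, divides each gene by its library's total over the same genome, so that a gene is compared as a share of the mitochondrial total. It asks which transcripts gained or lost ground among the mitochondrial ones. On it 19 genes were higher and 2 lower in T12, beside 43.5% called over all genes on their own compartment totals, 19.2% higher and 24.2% lower. In T34 22 were higher and 7 lower, beside 46.4% over all genes, 21.3% higher and 25.1% lower. The share of members called was thus below that of all genes on this scale. The median of the 125 was 0.18 in T12 and 0.15 in T34. Without WT replicate 2 the counts were 41 higher and 10 lower in T12 and 41 higher and 16 lower in T34, with no share over all genes given for that run. Leaving out T34 replicates 1, 2 or 3 left 6, 10 or 13 higher in T34. For T34 against T12, 0 were higher and 2 lower, beside 1.97% over all genes, 0.791% higher and 1.18% lower; at an unadjusted p under 0.05, 5 were higher and 6 lower, and edgeR called 2 higher.

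**Figure D2:**
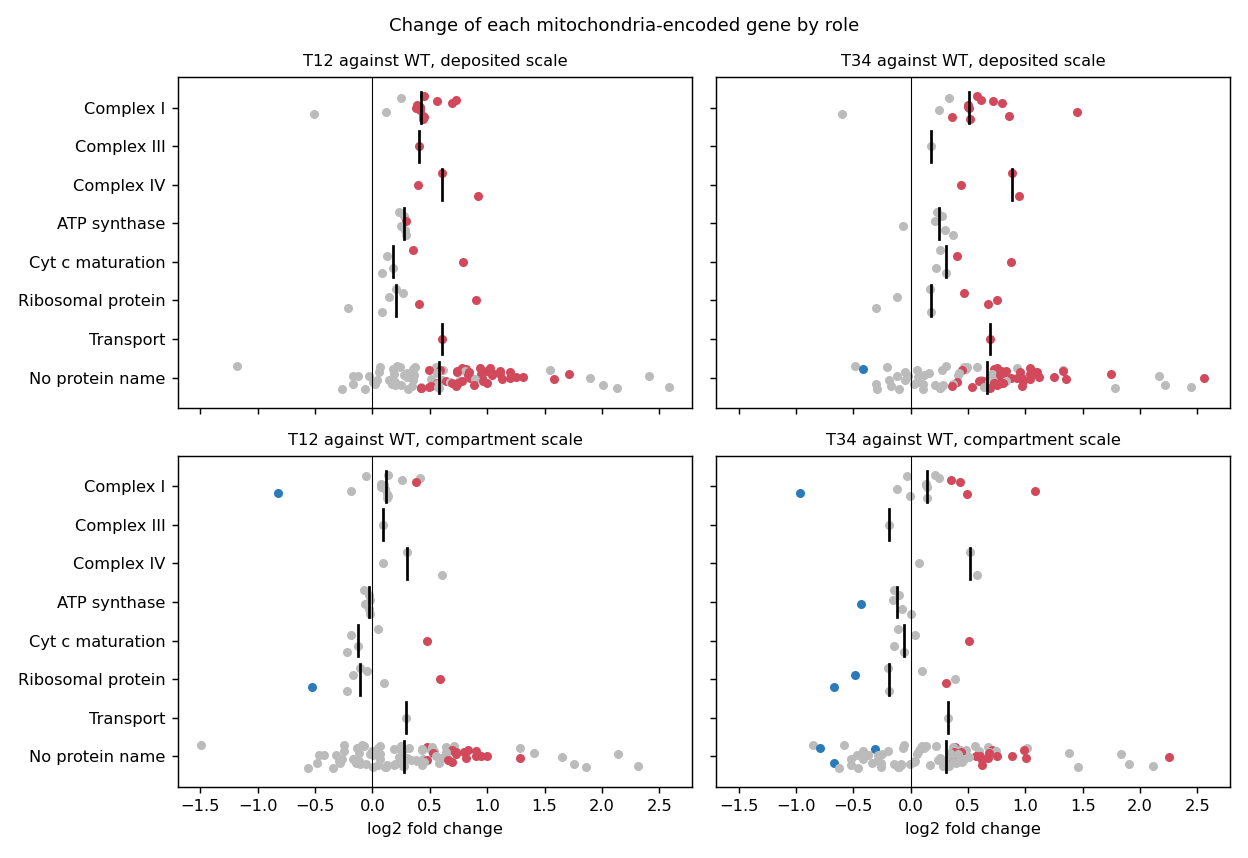
Log2 fold change (horizontal axis) of each of the 125 genes by role (rows), for T12 and T34 against WT (columns) on the deposited scale (top) and the compartment scale (bottom). Each point is a gene, red where called higher, blue where called lower and grey where not called, and the black line is the median of the role; on the deposited scale nearly all points of complex I and all 3 of complex IV lie right of 0, and on the compartment scale most roles lie close to 0.

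Complex I, the NADH dehydrogenase that takes in electrons at the head of the chain, held 14 of the rows. Of these, 11 rose in T12 and 11 in T34 on the deposited scale and 0 fell, with medians of 0.43 and 0.51 on the log2 scale. Beside this and the role counts below stand 23.1% of all genes higher in T12 and 25.2% in T34. The subunit gene nad7 had normalized counts of 8750.2, 9525 and 8558 in WT, 13979, 14457 and 14921 in T12 and 15654, 15858 and 14997 in T34. Every mutant library lay above every WT library, and T34 above T12. The log2 fold change was 0.69 ± 0.11 (SE, n = 3, limma adjusted p = 0.000983) in T12 and 0.79 ± 0.11 (adjusted p = 0.000371) in T34. As a share of the mitochondrial reads nad7 went from 3.48%, 3.28% and 3.41% in WT to 4.33% to 4.59% in T12 and 4.48% to 4.67% in T34. It was called on the compartment scale too, at 0.38 (adjusted p = 0.0117) and 0.43 (adjusted p = 0.0062). With ATMG00030 left out of the total the T12 call ended, and over the alternatives its adjusted p reached 0.104.

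The gene nad6 was at 4847, 3740 and 4866 in WT, 7539, 7476 and 7072 in T12 and 6900.1, 6681 and 6880.3 in T34. It rose by 0.73 ± 0.12 (adjusted p = 0.00141) in T12 and 0.62 ± 0.12 (adjusted p = 0.00296) in T34. The gene nad4 encodes another subunit of the membrane arm. For nad4 the values were 11166, 11734 and 10868 in WT, 14262, 15059 and 14705 in T12 and 16051, 17115 and 14945 in T34, and the rises were 0.38 ± 0.11 (adjusted p = 0.0241) and 0.51 ± 0.11 (adjusted p = 0.0056). The T12 call of nad4 ended when any 1 T12 library was left out (adjusted p up to 0.0871). The gene nad9 was at 8135, 4897 and 8295 in WT and 8192 to 9186 in the mutants. WT replicate 2 was the low library there, both populations overlapped WT, and neither comparison passed (adjusted p = 0.321 and 0.186).

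The parts of the trans-spliced messages were counted as separate rows. The 3 rows of nad1 were each higher in both populations. ATMG00516 went from 5435, 4558 and 5654 in WT to 6528, 7063 and 7128 in T12 and 7251, 7557 and 7289 in T34, a rise of 0.41 ± 0.11 (adjusted p = 0.0165) and 0.50 ± 0.11 (adjusted p = 0.00536). ATMG01275 went from 1077, 795 and 1012 to 1293, 1320 and 1289 in T12 and 1194, 1277 and 1209 in T34, a rise of 0.45 ± 0.12 (adjusted p = 0.014) and 0.36 ± 0.12 (adjusted p = 0.0311). ATMG01120 went furthest in T34. It was at 1669, 1426 and 1482 in WT, 1739, 2049 and 2456 in T12 and 2748, 3026 and 2535 in T34, with T12 spread widely between the others. Its rise was 0.44 ± 0.14 (adjusted p = 0.0317) in T12 and 0.86 ± 0.14 (adjusted p = 0.000942) in T34, and it was also called on the compartment scale in T34 (0.49, adjusted p = 0.0245). T34 against T12 gave 0.42 ± 0.14 (adjusted p = 0.174). The compartment call ended without WT replicate 3 or T34 replicate 1 or 2 (adjusted p up to 0.0846). In T12 the ATMG01120 call ended without WT replicate 2 (0.39, adjusted p = 0.0543) and without 4 other single libraries, and that of ATMG00516 ended without T12 replicate 2 or 3 (adjusted p up to 0.0617). The T34 call of ATMG01275 ended without T12 replicate 2 or any 1 T34 library (adjusted p up to 0.102), and without WT replicate 2 its rise was 0.23 (adjusted p = 0.0275).

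The 2 rows of nad2 rose together. ATMG00285 was at 2683, 2454 and 2452 in WT, 3505, 3869 and 3867 in T12 and 4159, 4338 and 3974 in T34, which is 0.57 ± 0.09 (adjusted p = 0.00122) and 0.72 ± 0.09 (adjusted p = 0.000263). ATMG01320 was at 4569, 3693 and 4155 in WT, 5695, 5429 and 5630 in T12 and 5910.0, 5972 and 5773 in T34, which is 0.44 ± 0.10 (adjusted p = 0.00865) and 0.51 ± 0.10 (adjusted p = 0.0033). In both rows the groups did not overlap. On the compartment scale ATMG00285 was called in T34 (0.35, adjusted p = 0.022), a call that ended without T34 replicate 1 or 2 (adjusted p up to 0.0718).

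Of the 3 rows of nad5, the scarce row ATMG00665 had the largest log2 fold change in T34. It stood at 62.0, 117 and 59.9 in WT, 51.9, 82.7 and 129 in T12 and 214, 219 and 193 in T34. T12 overlapped WT, and T34 lay above both. The WT replicate 2 value rested on 10 reads. T34 against WT gave 1.45 ± 0.34 (adjusted p = 0.00771, 2.73-fold) and 1.36 without the 2 libraries of uncertain label, where the call ended (adjusted p = 0.0566), while T12 against WT gave 0.12 ± 0.34 (adjusted p = 0.808). The difference of T34 from T12 was 1.33 ± 0.34 and did not pass (adjusted p = 0.0921). It passed without WT replicate 2 (adjusted p = 0.0230), by edgeR (adjusted p = 0.0271) and by DESeq2 (adjusted p = 0.00349). The rows ATMG00060 and ATMG00513 rose in both populations. ATMG00060 was at 10155, 9221 and 10025 in WT, 13290.0, 13353 and 13383 in T12 and 14641, 15392 and 13967 in T34 (0.45 ± 0.11, adjusted p = 0.0099, and 0.58 ± 0.11, adjusted p = 0.00214). ATMG00513 was at 6366, 4733 and 5655 in WT, 7272, 7440.2 and 7072 in T12 and 7570, 8411 and 7539 in T34 (0.39 ± 0.13, adjusted p = 0.0347, and 0.50 ± 0.13, adjusted p = 0.0105). The T12 call of ATMG00513 ended in 9 alternatives, among them leaving out WT replicate 3 or any 1 mutant library (adjusted p up to 0.104).

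The complex I gene nad3 did not rise. It lies beside rps12, a gene of the small ribosomal subunit, 45 bases apart on the same strand in the TAIR10.1 annotation. The normalized counts of nad3 were 725, 1753 and 642 in WT, 684, 635 and 650.0 in T12 and 656, 595 and 599 in T34. Those of rps12 were 961, 1636 and 1058 in WT, 1122, 971 and 976 in T12 and 1011, 935 and 937 in T34. In both genes WT replicate 2 was the highest library, and the other WT libraries lay close to the mutants. Neither gene passed on the deposited scale (adjusted p from 0.148 to 0.369). As shares of the mitochondrial total both fell, nad3 by 0.82 ± 0.27 (adjusted p = 0.0355) in T12 and 0.97 ± 0.27 (adjusted p = 0.0166) in T34, and rps12 by 0.53 ± 0.15 (adjusted p = 0.0176) and 0.67 ± 0.15 (adjusted p = 0.00498). Without WT replicate 2 the compartment differences were smaller and still called, at -0.44 (adjusted p = 0.00570) and -0.58 (adjusted p = 0.00115) for nad3 and -0.36 (adjusted p = 0.0172) and -0.51 (adjusted p = 0.00325) for rps12. Both genes have a full copy on chromosome 2, treated below. The T12 call of nad3 ended when any 1 mutant library was left out (adjusted p up to 0.0964), its T34 call without T34 replicate 2 (adjusted p = 0.0551), and the T12 call of rps12 without T12 replicate 2 or 3 (adjusted p up to 0.0658). The ratio of nad3 to rps12 was 0.754, 1.07 and 0.607 in WT and 0.610 to 0.666 in the mutants.

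Cytochrome b (cob) is the 1 subunit of complex III that the mitochondrion encodes. Its counts were 9576, 7632 and 9192 in WT, 12097, 11776 and 10889.7 in T12 and 9743, 9947 and 10086 in T34. T12 was the high group, above T34 in every library, and T34 lay just above WT. The rise was 0.40 ± 0.12 (adjusted p = 0.0256) in T12, and T34 gave 0.18 ± 0.12 (adjusted p = 0.251). The difference of T34 from T12 was -0.22 ± 0.12 (adjusted p = 0.455). The T12 call ended without T12 replicate 1 or 2 (adjusted p up to 0.0826). Its neighbour rpl5, 1903 bases away on the same strand, encodes a protein of the large ribosomal subunit. It was at 1949, 3600 and 2074 in WT, 2777, 2745 and 2558 in T12 and 2271, 2123 and 2360.4 in T34. WT replicate 2 was again the highest library. Neither population passed on the deposited scale (0.14 ± 0.20, adjusted p = 0.61, and -0.12 ± 0.20, adjusted p = 0.662), and without WT replicate 2 the T12 difference passed (0.42, adjusted p = 0.00346). As a share of the total rpl5 was lower in T34 (-0.49 ± 0.17, adjusted p = 0.0378), a call that ended when any 1 mutant library was left out (adjusted p up to 0.123) and that came to -0.28 (adjusted p = 0.0276) without WT replicate 2. That call also ended with a total over genes with a protein name and with a total without ATMG00030. The ratio of rpl5 to cob was 0.204, 0.472 and 0.226 in WT and 0.213 to 0.235 in the mutants.

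Complex IV, cytochrome c oxidase, hands the electrons to oxygen, and its 3 core subunit genes rose in both populations. The catalytic subunit gene cox1 gave the largest share of the mitochondrial reads in each library except WT replicate 2. It was at 32292, 20511 and 29379 in WT, 52257, 50576 and 49551 in T12 and 48699, 54752 and 51984 in T34. The mutant libraries did not overlap with WT and T12 overlapped T34. Its rise was 0.92 ± 0.20 (adjusted p = 0.00589, 1.89-fold) in T12 and 0.94 ± 0.20 (adjusted p = 0.00441, 1.92-fold) in T34. It took 12.9%, 7.06% and 11.7% of the mitochondrial reads in WT, 15.2% to 16.2% in T12 and 14.5% to 15.7% in T34. That gain in share did not pass (compartment scale 0.61 ± 0.22, adjusted p = 0.052, and 0.58 ± 0.22, adjusted p = 0.0587), and it passed without WT replicate 2 (0.34, adjusted p = 0.0248, and 0.31, adjusted p = 0.0334). Only 2.34% of the cox1 coding sequence has a match in the TAIR10.1 sequence of chromosome 2.

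The counts of cox2 were 9805, 6264 and 8966 in WT, 12195, 13325 and 12019.7 in T12 and 13800.1, 16772 and 14908 in T34. The 3 groups were separate, with T34 the highest. The rises were 0.61 ± 0.18 (adjusted p = 0.0215) and 0.88 ± 0.18 (adjusted p = 0.00308), and T34 against T12 gave 0.27 ± 0.18 (adjusted p = 0.547). The T12 call of cox2 ended without T12 replicate 2 (adjusted p = 0.0767). For cox3 the counts were 7808, 6966 and 6890.0 in WT, 9706, 9309 and 9509 in T12 and 9610, 9893 and 9803 in T34, with rises of 0.40 ± 0.10 (adjusted p = 0.0122) and 0.44 ± 0.10 (adjusted p = 0.00673). On the compartment scale 0 of the 3 passed in either direction by limma, and at a share of the total cox3 was level with WT at 2.79% to 3.01% against 3.11%, 2.40% and 2.75%.

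Few of the ATP synthase genes passed the test. Of 6 rows, 1 rose in T12 and 0 in T34 on the deposited scale, and at an unadjusted p under 0.05 1 was higher in each. The medians were 0.28 and 0.25. The gene atp1, for the alpha subunit of the catalytic head, was at 26659, 24415 and 24448 in WT, 30597, 31355 and 30339 in T12 and 31627, 33705 and 31964 in T34. The mutant libraries all lay above WT, by 0.29 ± 0.13 (adjusted p = 0.116) in T12 and 0.37 ± 0.13 (adjusted p = 0.0515) in T34. Neither passed, and T34 passed without WT replicate 2 (0.34, adjusted p = 0.0399). The share of atp1 among the mitochondrial reads was 10.6%, 8.40% and 9.75% in WT, 9.34% to 9.48% in T12 and 9.43% to 9.64% in T34. The call in T12 was atp4, a stator subunit, with 5801, 6592 and 6138 in WT, 7586, 7400.4 and 7626 in T12 and 7044, 7174 and 7185 in T34 (0.29 ± 0.10, adjusted p = 0.0377, and 0.21 ± 0.10, adjusted p = 0.103). That call ended in 13 alternatives, among them leaving out any 1 library other than WT replicate 2, with an adjusted p of up to 0.148 over the 13. With WT replicate 2 left out 2 ATP synthase rows rose in each population, atp4 among them in T34 (0.26, adjusted p = 0.0272), and DESeq2 called 2 in each and edgeR 0 in each.

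The neighbour of atp4 is nad4L, a complex I gene 266 bases away. It was at 3509, 3331 and 3931 in WT, 4916, 4805 and 4628 in T12 and 4262, 4116 and 4415 in T34, a rise of 0.42 ± 0.10 (adjusted p = 0.00784) in T12, and T34 gave 0.25 ± 0.10 (adjusted p = 0.06). Both neighbours were thus highest in T12, and their ratio stayed within 1.54 to 1.98 over the libraries. The gene atp9 encodes the membrane ring subunit that turns with the proton flow. It was at 13666, 17998 and 14146 in WT, 17492, 19565 and 16911 in T12 and 14887, 13970.3 and 14657 in T34. T34 overlapped WT in level. As a share of the mitochondrial total it fell in T34, from 5.44%, 6.19% and 5.64% in WT to 4.44%, 3.99% and 4.37% (log2 difference -0.43 ± 0.11, adjusted p = 0.0132), a call that ended without T34 replicate 2 (adjusted p = 0.0623). For atp8 the counts ran from 4546 to 7483 in WT and from 7284 to 7942 in the mutants, with adjusted p = 0.244 and 0.246.

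The rows atp6-1 and atp6-2 both encode the proton channel subunit. The first was at 6750.4, 4324 and 6464 in WT and 6566 to 6913 in the mutants, and the second at 5900.4, 2571 and 5204 in WT and 5151 to 5386 in the mutants. WT replicate 2 was far below the other WT libraries in both, and no comparison passed on the deposited scale. Their ratio was 1.14, 1.68 and 1.24 in WT and 1.27 to 1.32 in the mutants. Reads in any sequence the rows share could have been counted to either row or to both. Without WT replicate 2 both fell as shares of the total, atp6-1 by 0.35 (adjusted p = 0.00463) in T12 and 0.42 (adjusted p = 0.00173) in T34, and atp6-2 by 0.47 (adjusted p = 0.00147) and 0.51 (adjusted p = 0.000822). In that comparison the ATP synthase rows called lower on the compartment scale numbered 3 of 6 in T12 and 4 of 6 in T34, against 0 and 1 with all libraries.

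**Figure D3:**
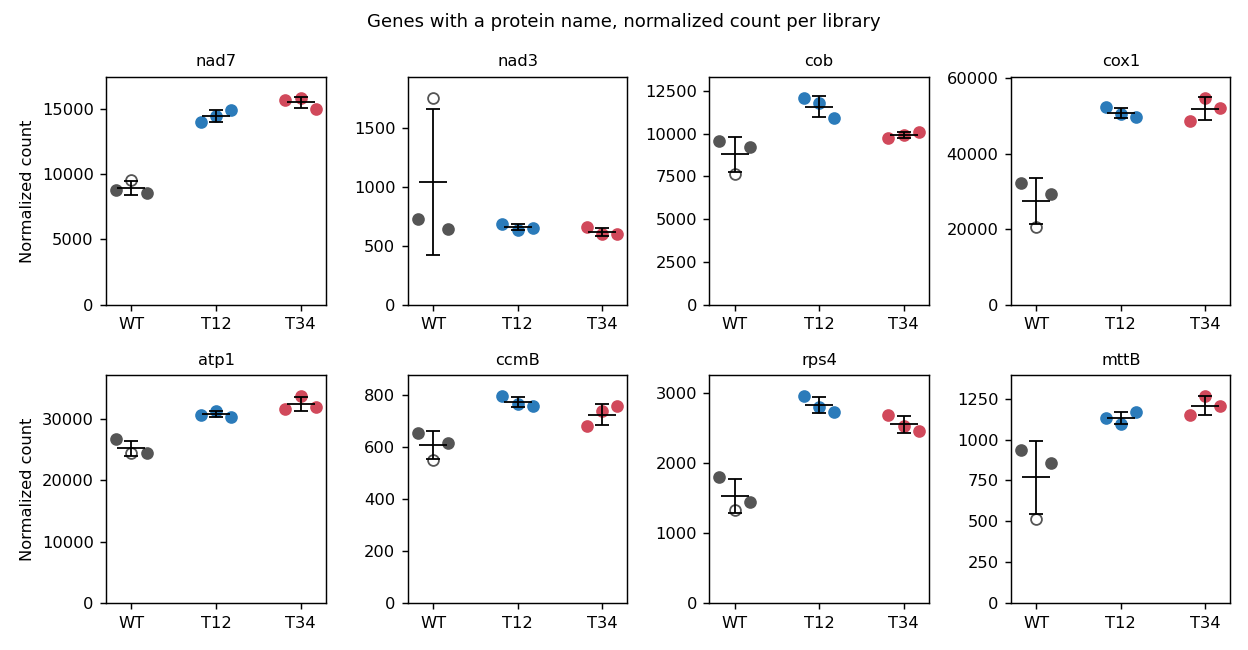
Normalized count (vertical axes, from 0) of 8 mitochondrial genes in each library of WT, T12 and T34. Points are libraries, the open point is WT replicate 2, and the marks are means ± SD (n = 3); nad7, cox1 and rps4 are separate from WT in both mutant populations, cob is highest in T12, and nad3 shows WT replicate 2 alone at 1753.

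Cytochrome c maturation attaches heme to the c-type cytochromes, and 5 rows encode parts of its machinery. On the deposited scale 2 rose in T12, ccmB and ccmFN1, and 2 in T34, ccmFC and ccmFN1, beside 23.1% and 25.2% over all genes. The transporter subunit ccmB was at 657, 549 and 614 in WT, 797, 768 and 759 in T12 and 680.0, 740 and 757 in T34. Its rise in T12 was 0.36 ± 0.10 (adjusted p = 0.0168), and T34 gave 0.26 ± 0.10 (adjusted p = 0.0534). The T12 call ended without T12 replicate 1 or 2 (adjusted p up to 0.0521). The row with the largest change was ccmFN1, part of the heme lyase, with 718, 830 and 659 in WT, 1217, 1288 and 1292 in T12 and 1361, 1413 and 1266 in T34. Its rises were 0.79 ± 0.10 (adjusted p = 0.000383) and 0.88 ± 0.10 (adjusted p = 0.000167), and it gained share on the compartment scale, by 0.48 ± 0.08 (adjusted p = 0.0016) and 0.51 ± 0.08 (adjusted p = 0.000963). Its companion row ccmFN2 did not pass, at 322, 678 and 377 in WT, 396, 516 and 481 in T12 and 542, 604 and 479 in T34 (adjusted p = 0.807 and 0.341). For ccmFC the counts were 2038, 2337 and 2144 in WT, 2277, 2393 and 2441 in T12 and 2862, 3030.1 and 2716 in T34, with a rise in T34 of 0.40 ± 0.09 (adjusted p = 0.00652). For ccmC they were 348, 304 and 395 in WT and 382 to 414 in the mutants (adjusted p = 0.224 and 0.14).

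Over all genes, 23.1% were higher in T12 and 25.2% in T34. Of 7 ribosomal protein rows, 2 rose in T12, rps4 and rpl2, and 3 in T34, rps4, rpl2 and rps3. With WT replicate 2 left out these counts were 6 and 5. The gene rps4 was at 1809, 1332 and 1448 in WT, 2959, 2798 and 2738 in T12 and 2695, 2525 and 2457 in T34, a rise of 0.90 ± 0.12 (adjusted p = 0.000403, 1.87-fold) and 0.75 ± 0.12 (adjusted p = 0.000906, 1.69-fold). It gained share in T12 (compartment scale 0.59 ± 0.15, adjusted p = 0.0119), and T34 gave 0.39 ± 0.15 (adjusted p = 0.0617). The neighbours rps3 and rpl16 overlap by 134 bases in the annotation, given there as -134 bases apart, so reads in the overlap may belong to either. For rps3 the counts were 11249.9, 12272 and 10925 in WT, 12825, 13873 and 14613 in T12 and 15907, 16305 and 15266 in T34 (0.26 ± 0.12, adjusted p = 0.101, and 0.46 ± 0.12, adjusted p = 0.00992). For rpl16 they were 4171, 6218 and 4099 in WT and 5249 to 5652 in the mutants. There WT replicate 2 lay above every mutant library. The T12 and T34 differences of rpl16 did not pass (adjusted p = 0.322 and 0.404) and passed without WT replicate 2 (0.40, adjusted p = 0.00306, and 0.36, adjusted p = 0.00432). The ratio of rps3 to rpl16 was 2.70, 1.97 and 2.67 in WT, 2.39 to 2.73 in T12 and 2.86 to 3.03 in T34.

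The large subunit gene rpl2 and the transport gene mttB lie 163 bases apart. The counts of rpl2 were 4019.8, 4441 and 3834 in WT, 5004, 5656 and 5666 in T12 and 6428, 6821 and 6363 in T34, with T34 highest and no overlap. The rises were 0.41 ± 0.10 (adjusted p = 0.0119) and 0.68 ± 0.10 (adjusted p = 0.000706), the first of which ended without T12 replicate 2 (adjusted p = 0.0525). The gain in share in T34 (0.31 ± 0.09, adjusted p = 0.0182) ended when any 1 T34 library was left out (adjusted p up to 0.0665). It also ended without the 2 libraries of uncertain label, with a total over genes with a protein name and with a total without ATMG00030. Over all alternatives its limma adjusted p reached 0.193. The gene mttB encodes a TatC-like subunit of the twin-arginine protein transporter. It was at 933, 514 and 859 in WT, 1131, 1093 and 1169 in T12 and 1151, 1266 and 1204 in T34 (0.60 ± 0.20, adjusted p = 0.0348, and 0.70 ± 0.20, adjusted p = 0.0172). The T12 call ended when any 1 mutant library was left out (adjusted p up to 0.0908) and the T34 call without T34 replicate 2 (adjusted p = 0.0584). Without WT replicate 2, which had 44 reads of mttB, the rises were 0.34 (adjusted p = 0.00878) and 0.43 (adjusted p = 0.00229). The 1 remaining ribosomal row, rps7, was at 295, 491 and 288 in WT and 349 to 410 in the mutants (adjusted p = 0.736 and 0.466). The maturase gene matR was not analysed here.

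Among the 88 open reading frames without a protein name, 38 rose in T12 and 0 fell, and in T34 39 rose and 1 fell. Over all genes tested, 23.1% were higher in T12 and 25.2% in T34. For the open reading frames the counts moved with the libraries used. Without WT replicate 2, 65 rose in T12 and 61 rose and 1 fell in T34, with no share over all genes given for that run. Their median log2 fold changes were 0.58 and 0.66. Many were scarce. Of all 125 genes, 58 had a mean normalized count under 100, and of these 22 rose in T12 and 25 in T34. On the compartment scale 16 of the 88 were higher and 0 lower in T12, and 16 higher and 3 lower in T34. Over all genes on that scale, 19.2% were higher and 24.2% lower in T12, and 21.3% higher and 25.1% lower in T34.

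Among called genes with a mean normalized count of at least 100 and no overlap with WT, ATMG00810 was one of the 5 largest rises in both populations. It was at 93.5 to 160 in WT, 310.4, 291 and 294 in T12 and 307, 285 and 303 in T34. WT and the mutants were well apart, and the mutants overlapped each other. The rises were 1.25 ± 0.18 (adjusted p = 0.000558, 2.38-fold) and 1.25 ± 0.18 (adjusted p = 0.000450, 2.38-fold), and on the compartment scale 0.94 (adjusted p = 0.00726) and 0.89 (adjusted p = 0.00889). ATMG00820 had 79.2, 46.7 and 53.5 in WT, 146, 146 and 146 in T12 and 138, 124 and 122 in T34 (1.31 ± 0.19, adjusted p = 0.000718, and 1.12 ± 0.19, adjusted p = 0.00144). ATMG00920 had 152, 105 and 138 in WT, 288, 287 and 282 in T12 and 269.6, 267 and 268 in T34 (1.13 ± 0.14, adjusted p = 0.000276, and 1.04 ± 0.14, adjusted p = 0.000355). In WT replicate 2 these 3 rested on 8, 4 and 9 reads.

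Among the other open reading frames named by size of rise, ATMG00590, ATMG00610 and ATMG00670 had more reads. ATMG00590, which the files describe as cytochrome b-like, was at 280.1, 292 and 311 in WT, 629, 594 and 596 in T12 and 496, 459 and 526 in T34, a rise of 1.04 ± 0.09 (adjusted p = 4.4e-05) and 0.74 ± 0.09 (adjusted p = 0.000253). ATMG00610 was at 318, 257 and 245 in WT, 593, 610.5 and 560.2 in T12 and 497, 444 and 487 in T34 (1.11 ± 0.12, adjusted p = 0.000107, and 0.81 ± 0.12, adjusted p = 0.000569). Both were highest in T12, and T34 against T12 did not pass (adjusted p = 0.163 and 0.253). Chromosome 2 loci described by the same names, treated below, held 6.35 times the reads of ATMG00590 and 1.81 times those of ATMG00610. Whether reads were shared with those loci was not tested. ATMG00670 was instead at 556, 573 and 459 in WT, 865, 928 and 1037 in T12 and 1112, 1126 and 1033 in T34, a rise of 0.84 ± 0.11 (adjusted p = 0.000479) and 1.05 ± 0.11 (adjusted p = 0.000105). ATMG00490 was at 112, 70.1 and 94.3 in WT, 129, 153 and 177 in T12 and 188, 228 and 166 in T34, with 6 reads in WT replicate 2 (0.74 ± 0.21, adjusted p = 0.0199, and 1.08 ± 0.21, adjusted p = 0.00268). Its T12 call ended without T12 replicate 2 or 3 (adjusted p up to 0.0744).

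**Figure D4:**
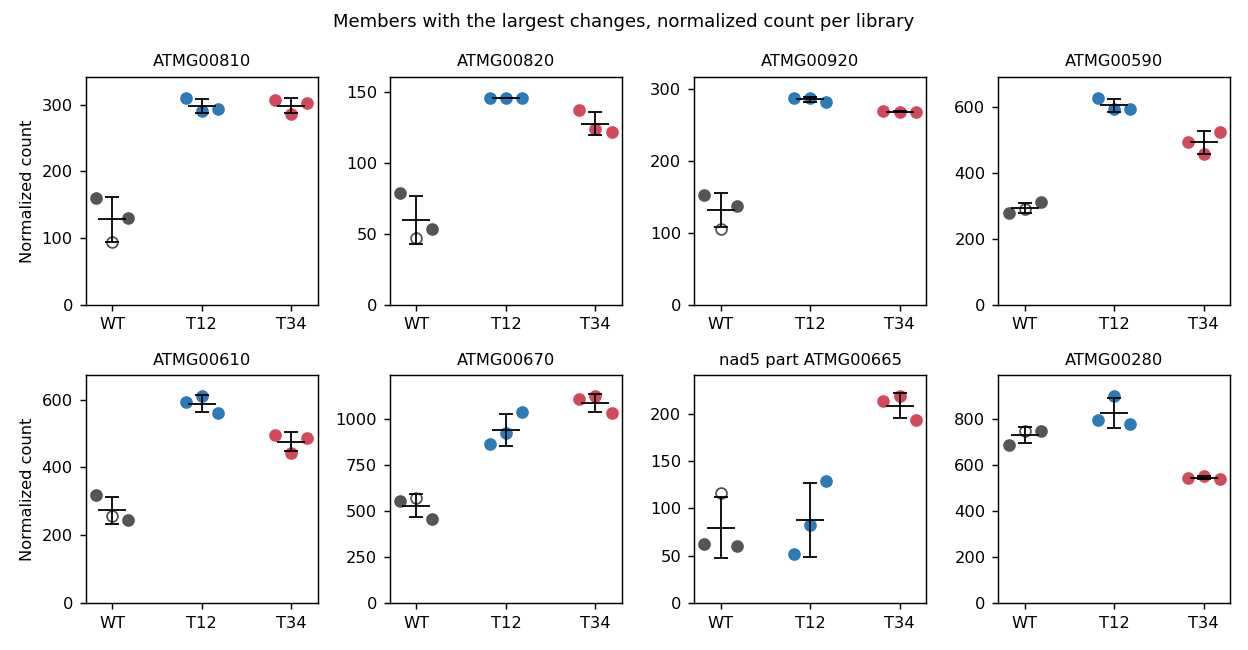
Normalized count (vertical axes, from 0) in each library of WT, T12 and T34 for 6 open reading frames without a protein name that rose, the nad5 row ATMG00665 and ATMG00280. Points are libraries, the open point is WT replicate 2, and the marks are means ± SD (n = 3); ATMG00665 is high in T34 alone (193 to 219), and ATMG00280 is lowest in T34 (538 to 550).

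The 1 gene that fell on the deposited scale was ATMG00280, which is also the 1 gene called between the mutant populations there. It was at 688, 748 and 749 in WT, 797, 899 and 778 in T12 and 545, 549.8 and 538 in T34. T34 lay below every other library and T12 above WT. T34 was lower than WT by 0.42 ± 0.09 on the log2 scale (log2 fold change -0.42, adjusted p = 0.00501) and lower than T12 by 0.60 ± 0.09 (log2 fold change -0.60, adjusted p = 0.0179, 1.51-fold). On the compartment scale the differences were -0.79 (adjusted p = 0.000165) and -0.65 (adjusted p = 0.0145). The call against T12 on the deposited scale ended when any 1 T12 or T34 library was left out (adjusted p up to 0.103). On the compartment scale it ended without T12 replicate 1 or 2 or any 1 T34 library (adjusted p up to 0.0946).

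The chloroplast gene rbcL, for the large subunit of Rubisco, was also lowest in T34. It was at 976149 to 1744500 normalized counts in WT, 912081 to 1044680 in T12 and 404169 to 429288 in T34. A stretch of 573 of the 1440 coding bases of rbcL has a copy in the TAIR10.1 mitochondrial genome, 97.2% identical, and a copy on chromosome 2, 96.9% identical. The chromosome 2 locus AT2G07732, described as a Rubisco large chain, was at 1564, 2162 and 1802 in WT, 1775, 1952 and 1534 in T12 and 888, 778 and 936 in T34. Whether rbcL reads contribute to ATMG00280 was not tested. ATMG01220 was lower in T34 on the compartment scale (-0.67 ± 0.11, adjusted p = 0.000849), at 315, 351 and 288 in WT, 337, 309.7 and 320.2 in T12 and 229, 275 and 266 in T34. ATMG00370 rose in T12, from 269.6, 351 and 288 in WT to 483, 472 and 407, and stood at 297, 310.0 and 332 in T34. T34 against T12 gave -0.59 ± 0.11 on the compartment scale (adjusted p = 0.0325). That call ended when any 1 mutant library was left out (adjusted p up to 0.164). It also ended with a total over genes with a protein name and with a total without ATMG00030.

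ATMG00030 was the most variable of the abundant rows. It was at 7745, 61323 and 17552 in WT, 7240.5, 10135 and 9738 in T12 and 15491, 13768 and 14373 in T34. The spread within WT was wider than any difference between groups, and no comparison passed (adjusted p from 0.142 to 0.68). The mitochondrial 26S ribosomal RNA was at 62993, 382538 and 124824 in WT, 62966, 78415 and 87418 in T12 and 155619, 147923 and 141233 in T34. WT replicate 2 was the highest library in both, and within WT both followed the share of ribosomal RNA left in the library. ATMG00030 took 3.08%, 21.1% and 7.001% of the mitochondrial reads in WT, 2.24% to 3.04% in T12 and 3.94% to 4.62% in T34. Its part in the total lowers the shares of the other genes in WT replicate 2. The relation of ATMG00030 to ribosomal RNA depletion was not tested.

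**Figure D5:**
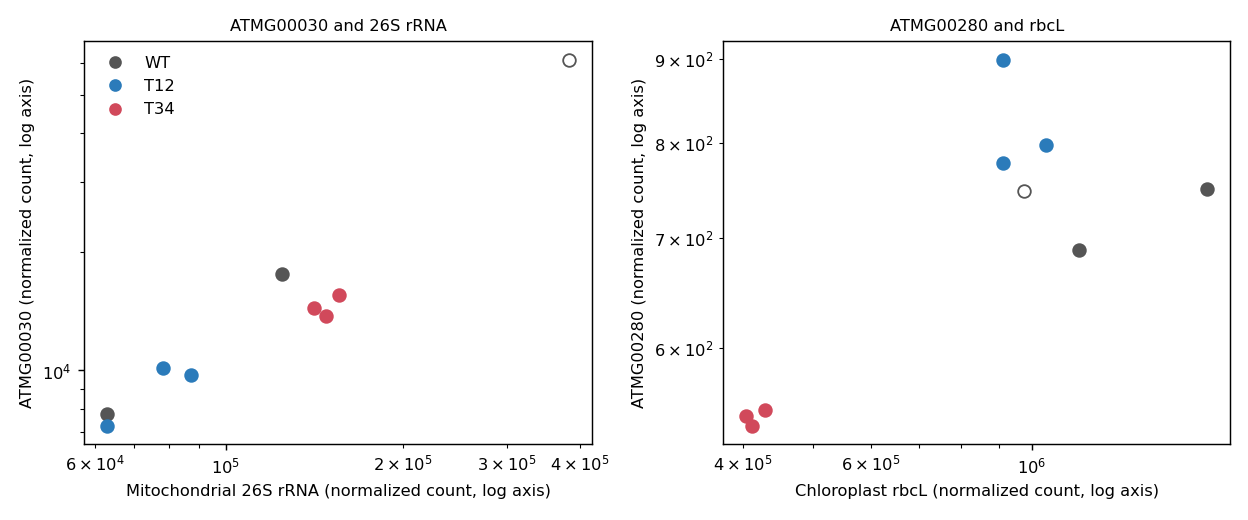
Left, ATMG00030 against the mitochondrial 26S ribosomal RNA, and right, ATMG00280 against chloroplast rbcL, as normalized counts on log axes, 1 point per library coloured by group with WT replicate 2 open. WT replicate 2 is highest on both left axes (61323 and 382538), and the 3 T34 libraries are lowest on both right axes.

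The summed level of the mitochondrial genes was also higher in the mutants. The normalized counts of the 37 genes with a protein name summed to 224055, 199000 and 214737 in WT, 287596, 292435 and 286033 in T12 and 291534, 307556 and 292683 in T34. The mutant sums were 1.36-fold and 1.40-fold above WT with no overlap (exact permutation p = 0.1 each), and T34 overlapped T12 (exact p = 0.2). The 88 others summed to 27200.8, 91617 and 35979 in WT and 35285 to 43882 in the mutants, with WT replicate 2 above every mutant library. ATMG00030 gave 61323 of that sum.

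Many of the protein-coding genes have a copy in the nucleus, from a large insertion of mitochondrial DNA into chromosome 2. Of 33 mitochondrial protein-coding genes of the TAIR10.1 annotation, 22 had at least 99% of their coding bases identical on chromosome 2. Where such a gene and its copy have the same bases, the genome sequence alone does not tell which of them a read came from. The 108 loci of that stretch held 45.5% to 51.9% as many reads as the 125 mitochondrial genes. Among 20 pairs of a member and a chromosome 2 locus described by the same name, the chromosome 2 row held 0.779 to 6.35 times the member's reads, with a median of 1.27, and 7 pairs were within 10% of each other. ATMG00430 and AT2G07701 each had 471 reads in all and the same number in every library. Whether the same reads were counted to both rows was not tested. Of the 98 chromosome 2 loci tested, 48 rose in T12 and 48 in T34, and 0 and 1 fell. Rises at these loci are not independent of those of the mitochondrial genes, since their reads may be the same.

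Some genes have no full copy in the TAIR10.1 sequence of chromosome 2, which was the sequence searched. Copies missing from that sequence would not have been found. The search found no match for atp4, ccmB, nad4L and nad9 and under 50% for cox1, cox2, rpl16 and rps3. Of these 8, 5 rose in T12 and 3 in T34, with median log2 fold changes of 0.32 and 0.30. Of 19 genes with at least 99% identity, 9 rose in each, with medians of 0.29 and 0.37. Whether the classes differ was not tested.

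The nuclear genes of the same complexes, from lists chosen with earlier results of these data known, rose in part as well. Of 11 nuclear complex I genes, 5 rose in T12 and 6 in T34 on the deposited scale. Of 9 genes of complex III and cytochrome c, 7 rose in each. Of 8 complex IV genes 4 rose in each, of 9 ATP synthase genes 7 and 8, and of 5 genes of complex II, which has only nuclear genes on this list, 3 in each, while 0 genes of these lists fell. Over all genes, 23.1% were higher in T12 and 25.2% in T34. On the compartment scale, where those shares were 19.2% and 21.3%, the genes called higher in T12 and T34 were 2 and 4 for complex I, 6 and 6 for complex III and cytochrome c, 3 and 4 for complex IV, 5 and 5 for the ATP synthase and 2 and 2 for complex II. The deposited-scale medians were 0.42 and 0.49 for complex I, 0.53 and 0.56 for complex III and cytochrome c, 0.65 and 0.73 for complex IV, and 0.66 and 0.52 for the ATP synthase. The cytochrome c gene CYTC-2 had the largest change of its list, at 110, 46.7 and 101 in WT, 455, 469 and 561 in T12 and 426, 445 and 512 in T34 (2.60 ± 0.28, adjusted p = 0.000119, and 2.502 ± 0.28, adjusted p = 0.000125). Its WT replicate 2 value rests on few reads, at 11.7 normalized counts per read.

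Nuclear genes that act on mitochondrial RNA and DNA were called lower at shares near those of all genes on the deposited scale, which were 17.0% in T12 and 20.0% in T34. Of 21 genes of mitochondrial RNA polymerase and RNA processing, 19 were tested, and 1 rose and 4 fell in T12, while 2 rose and 4 fell in T34. Of the same 19, 0 were higher and 9 lower in T12 on the compartment scale, and 1 higher and 7 lower in T34, beside 24.2% and 25.1% lower over all genes. The dual-targeted RNA polymerase gene RPOTmp was at 187, 210 and 212 in WT, 130, 135 and 153 in T12 and 144, 160 and 151 in T34 (-0.54 ± 0.12, adjusted p = 0.00662, and -0.42 ± 0.12, adjusted p = 0.02002). The RNA processing factor gene RPF1 was at 64.5, 117 and 62.5 in WT, 21.1, 16.7 and 18.5 in T12 and 19.8, 22.4 and 24.3 in T34 (-2.002 ± 0.28, adjusted p = 0.000522, and -1.77 ± 0.28, adjusted p = 0.000855). The splicing-related gene RUG3 was the 1 that rose in both, at 37.5, 35.1 and 39.5 in WT, 50.2, 57.7 and 52.2 in T12 and 68.8, 62.8 and 56.1 in T34 (0.50 ± 0.17, adjusted p = 0.044, and 0.73 ± 0.17, adjusted p = 0.00789). With 11.7 normalized counts per read, the WT replicate 2 values of RUG3 and RPF1 rest on few reads. Alternative runs are not given for the nuclear genes. Of 9 genes of mitochondrial DNA maintenance, 0 rose and 2 fell in each population, the DNA polymerase gene POLIB and OSB1, a single-stranded DNA-binding protein gene. Of these 9, 3 were lower on the compartment scale in T12 and 2 in T34, and 0 were higher. POLIB went from 609, 760 and 686 in WT to 409, 412 and 479 in T12 and 484, 476 and 528 in T34 (-0.66 ± 0.11, adjusted p = 0.00182, and -0.46 ± 0.11, adjusted p = 0.01001).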

How the data were processed

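There were 2 deposited tables, 1 for each mutant population against WT, with 30271 genes. Per the file headers the authors gave the log2 fold change and its error, the statistic as a score, raw and adjusted p-values and the mean, next to a normalized count for each library. That deposited signal is a read count divided by a size factor of the library, and the 3 WT columns were equal in both tables. Per the submitters' processing notes the build was TAIR10 and the tools DESeq2 1.22.2, featureCounts 1.6.2, HISAT2 2.1.0 and cutadapt 1.8.1. The sources used here do not give strand settings or how reads matching several loci were treated. Multiplied back, 100% of values were whole reads (tolerance 0.01).

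For raw counts an edgeR test had been planned. Since the values are normalized, limma 3.58.1 (R 4.3.3) was used with a mean-variance trend on log2(value + 1), with 9 libraries in 1 fit, for the 20871 genes with at least 10 in at least 3 libraries. It was tested on simulated data. Fold changes are on that scale, and those of genes with few reads depend on the pseudocount. Calls were made at an adjusted p under 0.05 (Benjamini-Hochberg). Errors are SE for log2 fold changes and SD for means, with n = 3. The compartment scale divides by the library's nuclear, chloroplast or mitochondrial total without rRNA and tRNA, times its geometric mean. Alternatives were edgeR 4.0.16 and DESeq2 1.42.0 on the recovered reads, other pseudocounts, filters, factors and totals, and leaving out libraries.

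The members, roles and lists were chosen with earlier results of these data known. The named genes were 1 fixed member per role, neighbours, trans-spliced parts and the atp6 pair, and up to 5 rises and falls per comparison and scale among called genes with a mean of at least 100 and no overlap; other named genes were given as the rest of their role, and ATMG00030 and the genes beside it were chosen after their values were seen. Names, neighbours and chromosome 2 copies came from TAIR10.1 (blastn 2.17.0). Its mitochondrial genome differs from that of the files' build, so no coordinates are given.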

Additional observations from a re-analysis of the deposited data

Results flagged for a closer look

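ATMG00280 differed between the mutant populations, with T34 below T12 at a log2 difference of -0.60 on the deposited scale and -0.65 on the compartment scale (limma adjusted p = 0.0179 and 0.0145, lower in 3 of 3 T34 libraries). ATMG00370 differed likewise on the compartment scale, at -0.59 (adjusted p = 0.0325). The summed normalized count of the 20 mitochondrial tRNA rows, which enter no comparison above, was 318, 444 and 268 in WT, and the lowest T12 library, at 457, and the lowest T34 library, at 471, lay above all 3 (exact permutation p = 0.1 for each population, the smallest that 3 libraries against 3 allow).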

How the results depend on the processing

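No paired analysis was possible because the libraries' columns carry no replicate numbers shared between groups. Leaving out 1 library at a time, the members higher ranged from 31 to 91 (T12 against WT) and from 41 to 86 (T34 against WT) on the deposited scale, and from 13 to 41 and from 6 to 41 on the compartment scale. The members lower ranged from 0 to 1 and from 1 to 2, and on the compartment scale from 0 to 10 and from 3 to 16. For T34 against T12 the higher ranged from 0 to 3 on each scale and the lower from 0 to 2 and from 0 to 6. The differences in the mitochondrial share ranged from 0.452 to 0.866, from 1.03 to 1.45 and from 0.525 to 0.622 percentage points.

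Other settings moved small counts by over 1.5 times. Without the 2 libraries of uncertain label, 1 member was lower in T12 and 0 in T34 against T12 on the deposited scale, and on the compartment scale 13 were higher in T34 and 0 lower in T34 against T12. A filter at 50 gave 4 lower in T12, limma without the trend 1 in T12 and 1 in T34 against T12, a total over the named members 4 and 1, and a total without ATMG00030 (chosen after seeing the data) 4 and 1, all on the compartment scale. TMM factors gave 2 lower in T34 against T12, and upper quartile factors 2 lower in T34. edgeR gave 1 lower in T12, 2 higher and 2 lower in T34 against T12, and on the compartment scale 5 lower in T12 and 2 higher in T34 against T12. DESeq2 gave 1 lower in T12, and 2 higher and 2 lower in T34 against T12. With all reads as denominator the share of T34 against T12 reversed, at -0.792. The causes were not tested. Upper quartile factors shifted the median of all genes by -0.104 and -0.122, with 45 members higher and 0 lower in T12 and 48 higher in T34, and the higher calls over all genes went from 57.6% to 47.7% and from 55.8% to 46.2%.

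Of 77 calls of members named by the fixed list or by size of change, 47 were lost in no alternative run. Of 3885 alternative values for these members 0 reversed a call, 145 lost one and 59 gained one. These counts leave out genes given as the rest of their role, such as nad4, cox2 and atp9, which also lost calls. Depth limits WT replicate 2, with 61 members under 10 reads.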
